A study of Mus musculus with 20 samples.

Results

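Motor cortex was compared with sensory cortex in healthy mice, to give the normal difference between these areas without disease. The arrays were chosen by their titles: 4 arrays of motor cortex and 4 of sensory cortex, 1 pair from each of 4 healthy mice, out of 20 arrays from 10 mice. All mice were female C57Bl6, and the labels give 8 to 12 weeks as the injection age of all 10, with collection on day 21 after injection. The healthy mice were housed in the cages of the mice with experimental autoimmune encephalomyelitis (EAE), and have no injection described in the labels. The 6 EAE mice, a model of multiple sclerosis, gave 12 arrays of the same areas. They were immunised with the MOG peptide, a stretch of a myelin glycoprotein, 100 µg into the flanks and 50 µg into the base of the tail. They also received pertussis toxin, 400 ng each on day 0 and on day 3. Their average grades ran from 2.50 to 3.50, and another label of the EAE arrays gives days 18 to 21. Areas were dissected from coronal forebrain slices of 1 mm with a brain atlas. The submitters call the tissue enriched for each area, so neighbouring tissue can be part of it. Values are log2 expression, 1 per probe set and array, and those of single arrays are in the order of mice 1 to 4.

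The cerebral cortex is built of layers that hold different neurons. Layer 4 receives input from the thalamus and is broad in primary sensory areas and thin in motor cortex, while layer 5 holds the neurons that project to the brainstem and spinal cord and is thick in motor cortex. Areas are laid out in development by graded transcription factors and adhesion molecules, and adult areas keep differences in the transmitters, receptors and channels of their neurons. In a tissue sample, fewer cells of a type and less RNA per cell cannot be told apart.

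The healthy arrays were alike as a whole. Array medians ran from 8.236 to 8.305, and arrays correlated across probe sets at 0.9941 to 0.9979 within an area and at 0.9932 to 0.9973 between areas. The first principal component, with 33.0% of the variance, had positive scores on all 4 motor arrays and negative scores on all 4 sensory arrays. A pair of arrays was processed on a second day, namely motor cortex of mouse 4 and sensory cortex of mouse 1, and these had the scores nearest 0 in their areas, 4.96 and -4.58. The motor array of mouse 4 correlated best with the sensory array of mouse 3 (0.9973), and the sensory array of mouse 1 correlated best with the motor array of its own mouse (0.9966). The motor and sensory arrays of mouse 2, both from the first day, also correlated best with each other (0.9968). With only 1 array of each area, the second day could be examined only by leaving its arrays out or as a covariate.

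Of 18194 genes, 1338 differed between motor and sensory cortex at an adjusted p under 0.05, which is 7.35% (limma with the mouse as a block, 4 pairs). They comprised 804 genes higher in motor cortex (4.42% of all genes) and 534 lower (2.94%). Most differences were small: their median size was 0.30 on the log2 scale, the smallest was 0.19, and a difference of 2-fold or more was reached by 8 of the higher and 13 of the lower genes. The median difference over all genes was 0.022. The motor arrays lay entirely above or below the sensory arrays for 955 of the 1338 genes, and for 10.0% of all genes. The count depended on single animals: it was 732 without mouse 2 and 606 without mouse 3. It was 674 without the mouse as a block, 566 without both the block and the second processing day (3 arrays against 3), and 1558 with the processing day as a covariate. The differences themselves are the same without the block or with the day as a covariate, so direction could not change there. All 1338 genes kept their direction without mouse 2, without mouse 3, and without both the block and the second processing day. Those fits share mice with the comparison that selected the genes.

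**Figure D1:**
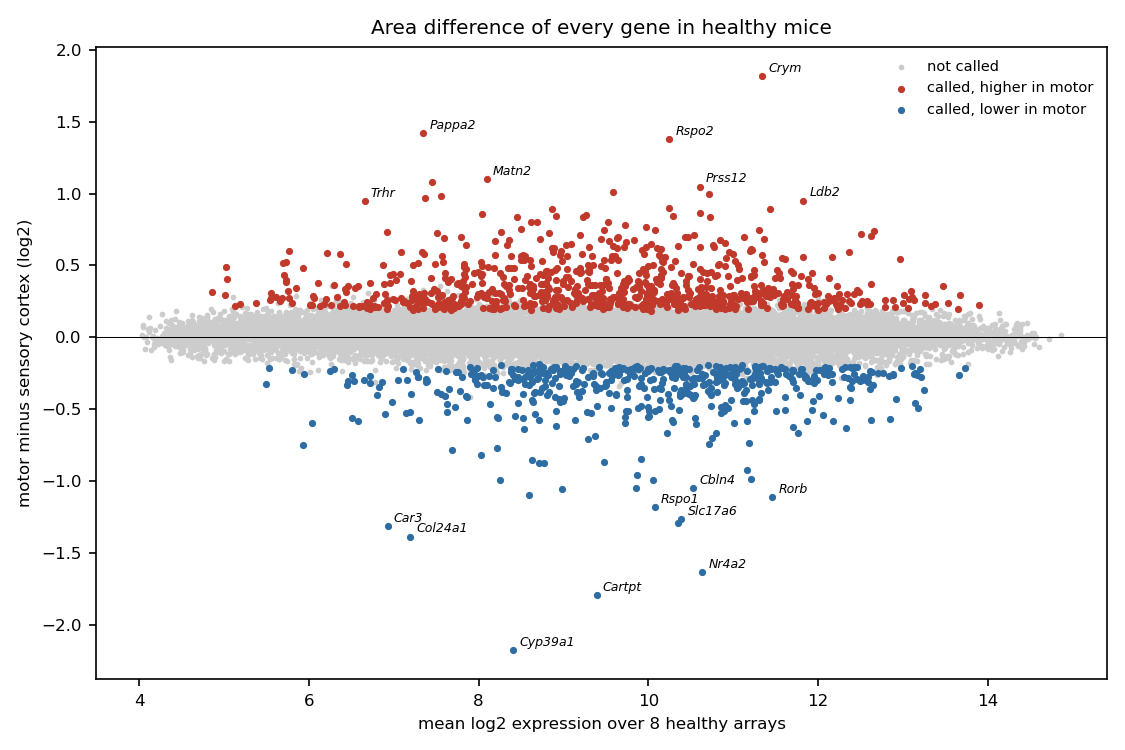
Motor minus sensory difference of each of 18194 genes in healthy mice (log2, vertical axis) against its mean log2 expression over the 8 arrays (horizontal axis). The 804 called higher genes and the 534 called lower genes are coloured, and the lowest point is Cyp39a1 at -2.18.

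The gene with the largest difference above sensory cortex was Crym, which encodes mu-crystallin, a binding protein for thyroid hormone. Crym stood at 12.40, 12.09, 12.44 and 12.09 in motor cortex of mice 1 to 4, against 10.19, 10.23, 10.50 and 10.80 in sensory cortex of the same mice. Every motor array was above every sensory array by more than 1 log2 unit. The difference was 1.82 ± 0.11 (SE), or 3.53-fold, with an adjusted p of 4.32e-06.

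Pappa2, a secreted protease that cleaves insulin-like growth factor binding proteins, had 8.19, 7.93, 8.23 and 7.89 in motor cortex, against 6.83, 6.47, 6.69 and 6.57 in sensory cortex. Its groups were separated by a wide gap, with a difference of 1.42 ± 0.06 (adjusted p = 5.36e-07 by limma). Rspo2, a secreted R-spondin that strengthens Wnt signals, had 11.13, 11.01, 11.08 and 10.52 in motor cortex, against 9.61, 9.43, 9.51 and 9.66 in sensory cortex. Mouse 4 had its lowest motor value, still above all sensory arrays. The difference was 1.38 ± 0.10, and 0.91 with the mean of its probe sets.

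The other genes among the 12 largest came from several functional classes. Prss12, which encodes the synaptic protease neurotrypsin, had 11.28, 11.07, 11.30 and 10.86 in motor cortex, against 10.00, 9.97, 10.16 and 10.20 in sensory cortex (difference 1.05 ± 0.08). Doc2a, a calcium sensor of synaptic vesicle release, had one of the tightest patterns, with 11.13 to 11.27 in motor cortex against 10.08 to 10.32 in sensory cortex (difference 1.00 ± 0.05). Matn2, a matrilin of the extracellular matrix, was higher by 1.10 ± 0.09, and the aldehyde dehydrogenase gene Aldh1a7 by 1.08 ± 0.13. The motor values of Aldh1a7 spread from 7.45 in mouse 4 to 8.42 in mouse 3.

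A pair of receptor genes was in this group. Chrna5, the alpha 5 subunit of nicotinic acetylcholine receptors, was higher in motor cortex by 0.97 ± 0.13, and Trhr, the receptor of thyrotropin-releasing hormone, by 0.95 ± 0.09. Trhr was dim in sensory cortex, at 6.12 to 6.32, and its other probe set differed by only 0.02. Ldb2, a cofactor of LIM-domain transcription factors, was bright in both areas, at 12.21 to 12.44 against 11.29 to 11.41 (difference 0.95 ± 0.06). Tmem232 and 4930447C04Rik completed the 12 with differences of 0.99 ± 0.10 and 1.01 ± 0.05, and the other 2 probe sets of 4930447C04Rik differed by 0.05 and 0.62.

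The largest difference of all was below sensory cortex. Cyp39a1, an enzyme that hydroxylates oxysterols, had 7.15, 7.43, 7.21 and 7.47 in motor cortex, against 9.78, 9.11, 9.73 and 9.36 in sensory cortex. It was 4.53-fold lower in motor cortex, with a log2 difference of -2.18 ± 0.13 and an adjusted p of 4.25e-06 by limma. The highest motor array was more than 1.5 units below the lowest sensory array.

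Cartpt, the precursor of the CART peptides, had 8.45, 8.60, 8.47 and 8.46 in motor cortex, against 10.58, 10.14, 10.26 and 10.19 in sensory cortex. Its motor values were nearly the same in all mice, and the difference was -1.80 ± 0.08. Nr4a2, the orphan nuclear receptor Nurr1, had 9.48, 10.11, 10.33 and 9.35 in motor cortex, against 11.45, 11.54, 11.27 and 11.56 in sensory cortex (difference -1.63 ± 0.16). Here the motor arrays varied more than the sensory arrays, with SDs of 0.48 and 0.13 (n = 4 each). The difference of Nr4a2 was -1.07 with the mean of its probe sets, and it was not called with an intensity trend and robust prior (adjusted p = 0.0578 by limma).

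Slc17a6, which encodes the vesicular glutamate transporter VGLUT2, had 9.80, 9.95, 9.46 and 9.82 in motor cortex, against 10.99, 11.24, 10.92 and 10.94 in sensory cortex. The difference was -1.27 ± 0.06, and its second probe set gave -1.63. The fibrillar collagen genes Col24a1 and Col11a1 were lower in motor cortex, with differences of -1.39 ± 0.06 and -1.10 ± 0.06. Kcnab3, a beta subunit of voltage-gated potassium channels, had 9.62, 9.63, 9.39 and 10.19 in motor cortex, against 11.01, 10.73, 11.15 and 11.10 in sensory cortex (difference -1.29 ± 0.11). The remaining members were the carbonic anhydrase gene Car3 at -1.31 ± 0.13 (-0.41 with the mean of its probe sets), the synaptic organiser Cbln4 at -1.05 ± 0.08, Tmem215 at -1.06 ± 0.13, and Rorb and Rspo1, described with layer 4.

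**Figure D2:**
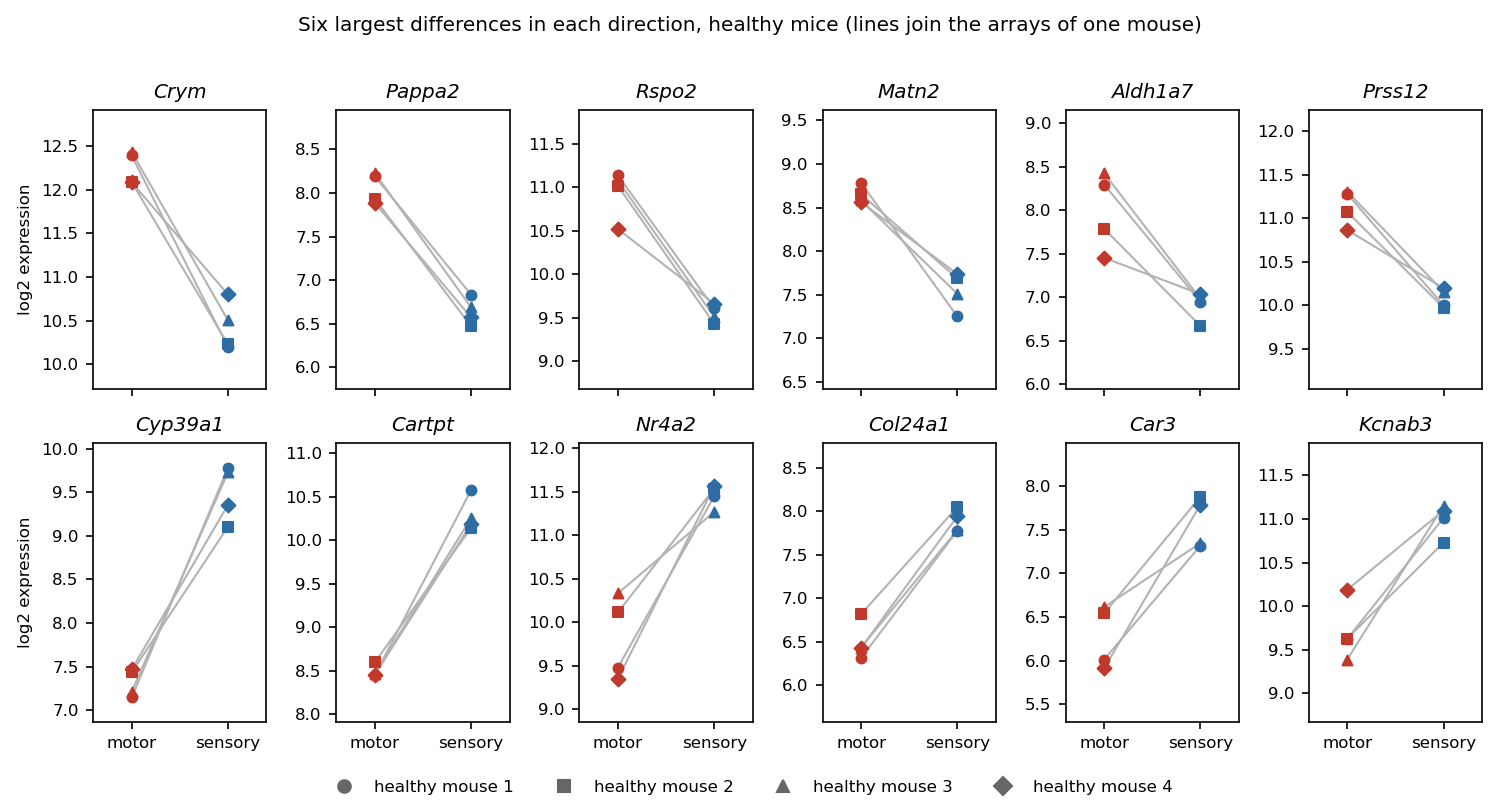
Log2 expression of the 6 genes with the largest difference in each direction, motor cortex left and sensory cortex right, with a line joining the 2 arrays of each of 4 healthy mice. Each panel has its own vertical range, and in every panel all lines run the same way and the areas do not overlap, as for Crym (12.09 to 12.44 in motor cortex against 10.19 to 10.80 in sensory cortex).

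The stretches just before the annotated starts of leading genes are shown because these genes differ together between the areas. RefSeq promoters of build GRCm38.p6 held 15 of the 24 genes with the largest differences, 6 higher and 9 lower in motor cortex. Each was searched on both strands for the motifs AGGTCA, the half-site of many nuclear receptors, and TGACAG, the core of Meis homeodomain proteins. The 250 bases upstream of the start follow, 5′ to 3′ on the gene's strand, for genes higher (Pappa2, Prss12) and lower in motor cortex (Cartpt, Slc17a6, Rorb, Col24a1), with motif matches in capitals.
Pappa2 (chr1:158958176-158958425, minus strand): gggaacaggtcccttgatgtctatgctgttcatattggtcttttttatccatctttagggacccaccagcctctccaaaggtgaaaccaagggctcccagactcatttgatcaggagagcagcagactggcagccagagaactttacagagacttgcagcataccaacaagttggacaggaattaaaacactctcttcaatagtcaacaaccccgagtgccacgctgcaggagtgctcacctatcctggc
Prss12 (chr3:123446663-123446912, plus strand): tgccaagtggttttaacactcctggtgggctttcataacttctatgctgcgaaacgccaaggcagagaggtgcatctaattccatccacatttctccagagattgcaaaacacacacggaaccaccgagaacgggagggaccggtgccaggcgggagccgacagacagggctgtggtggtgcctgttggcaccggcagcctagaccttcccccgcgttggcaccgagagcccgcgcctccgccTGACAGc
Cartpt (chr13:99900684-99900933, minus strand): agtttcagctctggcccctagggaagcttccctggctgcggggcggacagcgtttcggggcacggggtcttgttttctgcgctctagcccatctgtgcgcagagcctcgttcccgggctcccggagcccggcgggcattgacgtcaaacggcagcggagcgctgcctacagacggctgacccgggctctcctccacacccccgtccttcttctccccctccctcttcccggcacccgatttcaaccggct
Slc17a6 (chr7:51621580-51621829, plus strand): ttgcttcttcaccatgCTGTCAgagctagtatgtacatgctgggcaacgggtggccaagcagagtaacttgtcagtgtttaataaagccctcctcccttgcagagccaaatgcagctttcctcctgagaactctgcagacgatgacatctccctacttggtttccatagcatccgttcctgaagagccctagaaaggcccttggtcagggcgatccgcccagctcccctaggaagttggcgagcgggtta
Rorb (chr19:19111197-19111446, minus strand): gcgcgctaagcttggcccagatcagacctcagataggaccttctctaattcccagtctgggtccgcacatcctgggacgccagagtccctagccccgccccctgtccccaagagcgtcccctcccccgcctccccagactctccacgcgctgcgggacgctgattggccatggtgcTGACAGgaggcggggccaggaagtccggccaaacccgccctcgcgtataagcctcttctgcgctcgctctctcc
Col24a1 (chr3:145292222-145292471, plus strand): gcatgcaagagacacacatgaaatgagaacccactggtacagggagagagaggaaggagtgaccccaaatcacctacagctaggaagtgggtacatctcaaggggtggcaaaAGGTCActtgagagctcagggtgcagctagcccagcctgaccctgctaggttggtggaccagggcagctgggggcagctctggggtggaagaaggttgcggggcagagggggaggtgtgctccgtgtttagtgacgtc
The promoters of Prss12, Slc17a6 and Rorb each hold 1 match to the Meis core (that of Slc17a6 on the opposite strand), that of Col24a1 holds 1 match to the half-site, and those of Pappa2 and Cartpt hold neither. Of the 15 promoters, 3 held the half-site and 4 held the Meis core. The half-site was in 11.4% of the promoters of genes called higher in motor cortex and 11.8% of those called lower, against 12.1% of measured genes with a sequence and 13.8% of all 27025 promoters. For the Meis core the shares were 13.7%, 13.3%, 14.7% and 15.9% in the same order. These matches are descriptions of letters and not of bound sites.

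Genes of layer 4 neurons were lower in motor cortex. Of 12 measured members, 9 were called lower and 1 higher, and the median difference was -0.69, against 0.022 over all genes. Cyp39a1, described above, is among the lower members. The members of this and the other lists were chosen with earlier results of these data known, so their counts are descriptions and not tests. Over all genes 7.35% were called, 4.42% higher and 2.94% lower, and each list count below is read beside these shares. Rorb, a nuclear receptor that specifies layer 4 neurons, had 10.91, 10.77, 10.86 and 11.06 in motor cortex, against 12.04, 12.03, 11.94 and 12.05 in sensory cortex. It was 2.17-fold lower in motor cortex (difference -1.11 ± 0.06, adjusted p = 1.78e-06), and its other 2 probe sets gave -0.74 and -0.60.

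Rspo1, an R-spondin like Rspo2, had 9.44, 9.59, 8.88 and 10.02 in motor cortex, against 10.63, 10.76, 10.60 and 10.68 in sensory cortex. The motor values spread more than the sensory values, with SDs of 0.47 and 0.07 (n = 4 each). The difference was -1.18 ± 0.12. Rspo2 and Rspo1 were therefore among the 12 largest differences in opposite directions.

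Scnn1a, a subunit of the epithelial sodium channel used as a layer 4 marker, had 8.05, 8.56, 8.37 and 8.35 in motor cortex, against 9.49, 9.53, 9.02 and 8.80 in sensory cortex (difference -0.88 ± 0.12). Without both the second processing day and the block it stood at -0.79 and was not called. Within cohort 2 it was called at -0.55. Cohort 1 held healthy mice 1 and 2 and cohort 2 held mice 3 and 4, so values within a cohort rest on 2 mice. Also lower were Endou (-0.86 ± 0.05), the potassium channel gene Kcnh5 (-0.78 ± 0.08), the semaphorin receptor gene Plxnd1 (-0.60 ± 0.06), Coch (-0.60 ± 0.07) and Zmat4 (-0.51 ± 0.06). The exceptions were Il1rapl2, higher by 0.30 ± 0.06, and Whrn and Hsd11b1, which were not called (0.07 ± 0.06 and -0.23 ± 0.08). The count of lower members was 9 whichever mouse was left out. The count of higher members was 0 without mouse 1 or 3 and with the mean of a gene's probe sets, so the call of Il1rapl2 was not kept there.

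The motor array of mouse 4 had the highest motor value for the layer 4 genes Rorb, Rspo1, Cyp39a1, Kcnh5, Zmat4, Coch and Endou. The same held for Kcnab3, which is not on that list. That array was the only motor array of the second day, so day and animal cannot be told apart. Of the 12 layer 4 genes, 8 were called lower without that day and the block, 9 without the block alone, and 10 with the day as a covariate. In mouse 4 the 1338 called genes differed by a median of 0.246 in their direction, against 0.305 to 0.364 in the other mice.

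Of 15 measured upper layer genes, 3 were called lower and 1 higher in motor cortex, with a median difference of -0.074, against 7.35% of all genes called. Leaving out 1 mouse gave 2 or 3 lower and up to 2 higher. Cux1, a homeodomain factor of upper layers, had 10.54, 10.52, 10.39 and 10.40 in motor cortex, against 11.19, 11.22, 11.10 and 11.00 in sensory cortex, and all 8 of its other probe sets were lower too. Its difference was -0.67 ± 0.05, while its relative Cux2 was not called (-0.17 ± 0.08). Pou3f2 was called at -0.38 ± 0.06 (-0.25 with the mean of its probe sets). Lamp5 (-0.21 ± 0.05) and Nptx2 (0.32 ± 0.08) were called as well. Both missed the threshold when mouse 1, 2 or 3 was left out, at -0.22, -0.20 and -0.19 for Lamp5 and 0.28, 0.35 and 0.24 for Nptx2.

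Layer 5 projection neuron genes were mostly higher in motor cortex: 10 of 18 measured were called higher and 1 lower, with a median difference of 0.26. Besides Crym and Ldb2, Fezf2, the factor that specifies subcortically projecting neurons, had 11.06, 10.62, 10.83 and 10.76 in motor cortex, against 10.11, 9.87, 10.21 and 10.28 in sensory cortex. The areas did not overlap, and the difference was 0.70 ± 0.07 (adjusted p = 0.000153 by limma). Deptor, an inhibitor of the mTOR kinase, had 11.34, 11.27, 11.16 and 11.00 in motor cortex, against 10.73, 10.67, 10.63 and 10.54 in sensory cortex (difference 0.55 ± 0.05).

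Smaller differences ran the same way for Sulf2 (0.54 ± 0.06), Chst8 (0.48 ± 0.07), Rbp4 (0.43 ± 0.06), Npr3 (0.42 ± 0.06, and 0.22 and not called with the mean of its probe sets) and Kcnn2 (0.22 ± 0.05). Bcl11b, the factor CTIP2 that acts downstream of Fezf2 in these neurons, was higher by 0.30 ± 0.07. It passed without mouse 4 but not without mouse 1, 2 or 3, where it stood at 0.28, 0.29 and 0.25. The member called lower was the peptide receptor gene Qrfpr, with 7.49, 7.78, 7.32 and 7.90 in motor cortex against 8.34, 8.51, 8.24 and 8.68 in sensory cortex (difference -0.82 ± 0.05). The count of higher members was 8 or 9 with 1 mouse left out, 9 without the block, 7 without both the block and the second processing day, and 10 with the day as a covariate.

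Of 16 measured layer 6 and 6b genes, 2 were called higher (Sla at 0.42 ± 0.10 and Sez6 at 0.33 ± 0.07) and none lower. Their median difference was 0.087, and 7.35% of all genes were called. The count depended on single animals: without mouse 4, 5 were higher (median 0.19), and without mouse 1 or 2 none was called. Within cohort 1, which holds 2 healthy mice, 4 were higher (median 0.21). Neither call was kept with every mouse left out: Sla stood at 0.36, 0.35 and 0.38 without mice 1, 2 and 3, and Sez6 at 0.25 and 0.31 without mice 1 and 2. The corticothalamic factors Foxp2 and Tle4 were not called, at 0.03 ± 0.11 and 0.08 ± 0.06. Ccn2, a marker of layer 6b, had 10.44, 11.25, 10.91 and 9.81 in motor cortex, against 10.86, 10.59, 10.60 and 10.79 in sensory cortex. Its motor values lay on both sides of the sensory values (difference -0.11 ± 0.20).

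**Figure D3:**
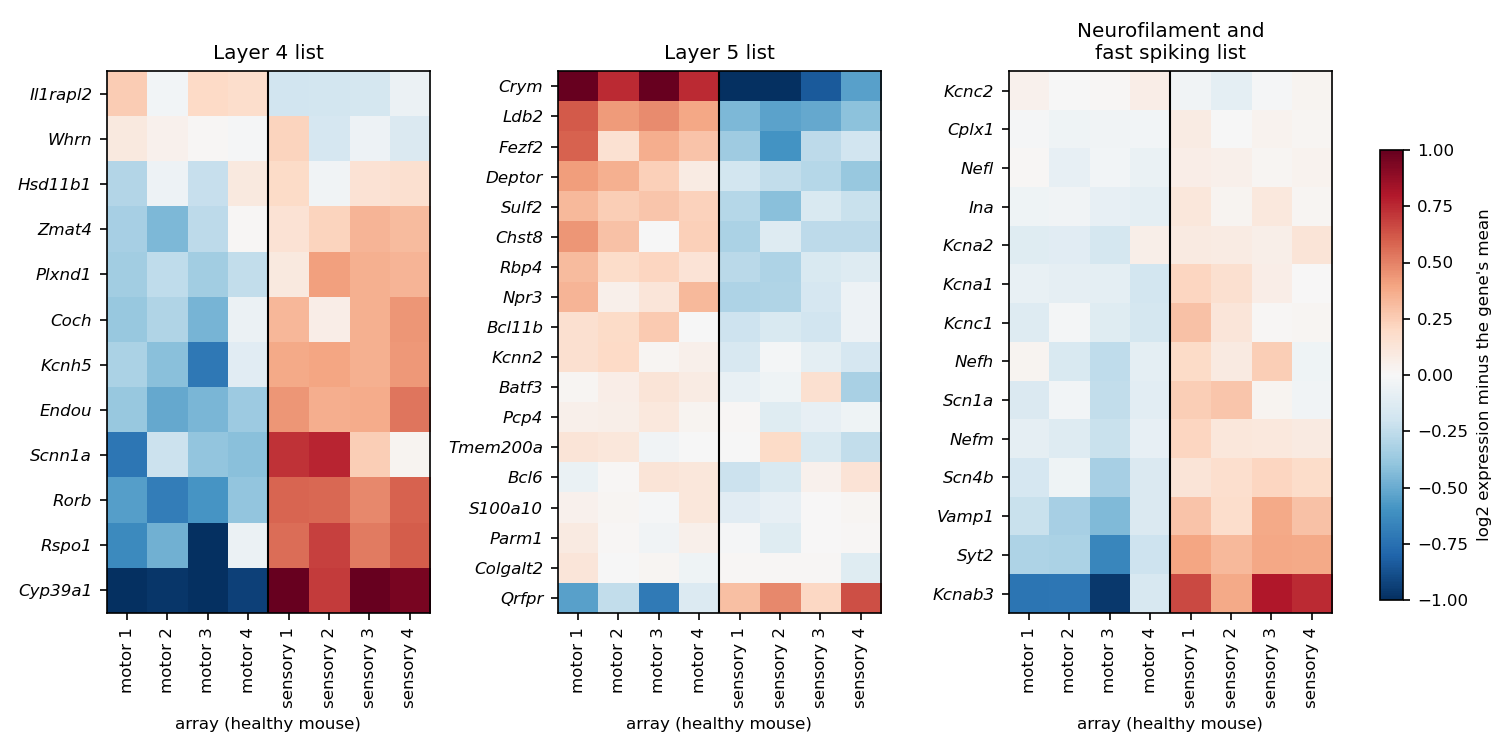
Log2 expression of layer 4, layer 5, and neurofilament and fast-spiking genes in each healthy array, minus the gene's mean over the 8 arrays (red above and blue below the mean, colours ending at 1 and -1), with the 4 motor arrays left of the line and the 4 sensory arrays right of it. Most layer 4 genes, such as Rorb, are below their mean in motor arrays, and most called layer 5 genes, such as Fezf2, are above it.

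Genes that pattern cortical areas in development were called in both directions in these mice. Of 24 measured, 8 were called higher and 4 lower in motor cortex, with a median difference of 0.13. Lmo4, a LIM-only factor known from frontal and motor areas, had 13.66, 13.62, 13.64 and 13.69 in motor cortex, against 13.27, 13.27, 13.31 and 13.33 in sensory cortex. The spread within each area was 0.03 (SD, n = 4), and the difference was 0.35 ± 0.05. Nr2f2, the nuclear receptor COUP-TFII, was lower (-0.42 ± 0.06), and its relative Nr2f1 was not called (-0.20 ± 0.07).

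The homeobox genes Emx2 and Emx1 differed in opposite directions, by 0.24 ± 0.06 and -0.30 ± 0.05. So did cadherins, which are adhesion molecules: Cdh11 was higher by 0.58 ± 0.07, Cdh8 by 0.31 ± 0.07 and Cdh4 by 0.27 ± 0.07, whereas Cdh6 was lower (-0.56 ± 0.06). The ephrin Efna5, an axon guidance ligand, was lower (-0.30 ± 0.07), and none of its measured receptors Epha3, Epha4, Epha5 and Epha7 was called (0.06 to 0.23). The count of higher members was 3 to 9 with 1 mouse left out, 3 without the block, 2 without both the block and the second processing day, and 8 with the day as a covariate.

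Axon guidance and adhesion genes were called in both directions, with 12 of 36 higher and 6 lower and a median difference of 0.14. With 1 mouse left out, 8 to 13 were higher and 2 to 5 lower, and without the block 9 and 3. The netrin receptors split: Dcc had 9.71, 9.94, 9.98 and 9.83 in motor cortex against 9.01, 9.45, 9.07 and 9.26 in sensory cortex, whereas Unc5d had 10.75, 10.78, 10.78 and 10.97 in motor cortex against 11.57, 11.60, 11.48 and 11.57 in sensory cortex. Dcc was higher by 0.67 ± 0.07 (0.36 with the mean of its probe sets) and Unc5d lower (-0.73 ± 0.06). Protocadherins split too, with Pcdh19 higher by 0.68 ± 0.09 and Pcdh20 lower (-0.51 ± 0.06). The semaphorin Sema3c and its receptor Nrp1 were each higher by 0.46 ± 0.06, the Slit receptor Robo1 by 0.46 ± 0.08 and the ligand Slit1 by 0.39 ± 0.07, while Sema7a was lower (-0.33 ± 0.06).

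Of 12 excitatory and synaptic genes, only Neurod6 was called (0.55 ± 0.06), beside 7.35% of all genes, and the median difference was -0.0065. Slc17a7, the glutamate transporter VGLUT1 of cortical neurons, had 13.20, 12.72, 12.84 and 12.70 in motor cortex, against 12.87, 13.00, 12.94 and 12.68 in sensory cortex. These values overlapped, with a difference of -0.01 ± 0.08 and a sign that changed between the fits that left a mouse out.

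Of 23 measured genes of inhibitory neurons, 4 were called higher and 2 lower, beside 4.42% and 2.94% of all genes, with a median difference of 0.061. The counts were 1 and 1 without mouse 2, 2 and 1 without the block, 1 and 0 without both the block and the second processing day, and 7 and 2 with the day as a covariate. Gad1, which makes GABA, was not called (-0.08 ± 0.06). Pvalb, the calcium buffer of fast-spiking interneurons, had 13.11, 13.10, 12.90 and 13.13 in motor cortex, against 13.56, 13.30, 13.43 and 13.44 in sensory cortex (difference -0.37 ± 0.06). The areas did not overlap for Pvalb, but it was not called without both the second processing day and the block (-0.35, 3 arrays against 3). Sst and Vip, peptides of the other main subtypes, stood at 0.18 ± 0.06 and 0.19 ± 0.06 and missed the threshold (adjusted p = 0.0959 and 0.0767 by limma), whereas Tac2 was higher by 0.37 ± 0.06.

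Neurofilament and fast-spiking genes were lower in motor cortex where they were called: 8 of 14 lower and none higher, with a median difference of -0.23. Besides Kcnab3, the vesicle calcium sensor Syt2 had 10.41, 10.40, 10.06 and 10.51 in motor cortex, against 11.11, 11.03, 11.10 and 11.10 in sensory cortex (difference -0.74 ± 0.07). Vamp1, a vesicle fusion protein, was lower (-0.57 ± 0.07), and so were the sodium channel genes Scn4b (-0.35 ± 0.06) and Scn1a (-0.26 ± 0.06). Nefm was lower (-0.26 ± 0.05), and the heavy neurofilament gene Nefh was not called (-0.24 ± 0.07). Between 4 and 8 members were lower with 1 mouse left out, 5 without the block, 4 without both the block and the second processing day, and 8 with the day as a covariate.

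The proteoglycan net that surrounds fast-spiking cells gave a mixed result, with 1 of 10 genes higher and 2 lower and a median difference of -0.025. Acan, its core protein aggrecan, had 8.14, 8.15, 8.14 and 8.09 in motor cortex, against 8.68, 8.38, 8.51 and 8.51 in sensory cortex (difference -0.39 ± 0.06). Vcan was higher by 0.33 ± 0.07 and the hyaluronan synthase Has3 lower (-0.28 ± 0.06). Vcan missed the threshold without mouse 1, 2 or 3 (0.31, 0.32 and 0.27) and with the mean of its probe sets (0.10), and Has3 missed it without mouse 3 or 4 (-0.30 and -0.21).

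Neuropeptide genes showed differences in both directions, with 7 of 20 higher and 2 lower in motor cortex and a median difference of 0.18. The count of higher members was 5 to 7 with 1 mouse left out and 4 without the block. Tac1, the precursor of substance P, had 11.96, 11.92, 11.91 and 11.75 in motor cortex, against 11.03, 11.19, 10.73 and 11.01 in sensory cortex (difference 0.89 ± 0.07). Its second probe set differed by 0.01, which put the mean of both at 0.45. Adcyap1, the precursor of PACAP, had 10.97, 10.42, 10.74 and 10.70 in motor cortex, against 9.84, 9.76, 9.86 and 9.99 in sensory cortex (difference 0.85 ± 0.07), with 0.96 in its second probe set. Grp, gastrin-releasing peptide, was higher by 0.62 ± 0.11, and its relative Nmb, neuromedin B, was lower (-0.64 ± 0.09). Cck was higher by 0.22 ± 0.05.

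Immediate early genes, which respond to neuronal activity, did not share a direction: 5 of 17 were higher and 3 lower, with a median difference of 0.048. These counts were 4 or 5 and 1 or 2 with 1 mouse left out, and 2 and 1 without the block. They were also 2 and 1 without both the block and the second processing day. The nuclear receptors Nr4a3 and Nr4a2 were called in opposite directions, with Nr4a3 at 11.14, 11.02, 11.19 and 10.92 in motor cortex against 10.61, 10.43, 10.62 and 10.60 in sensory cortex (difference 0.50 ± 0.06, and 0.25 with the mean of its probe sets). Bdnf, a neurotrophin, was higher by 0.35 ± 0.06 and Egr2 by 0.49 ± 0.09, whereas Arc was lower (-0.29 ± 0.05). Fos was not called (0.04 ± 0.07). For Arc the mice differed more than the areas, with 12.72, 11.77, 12.63 and 12.11 in motor cortex against 12.94, 12.06, 13.04 and 12.34 in sensory cortex, and the pairing by mouse carries that difference.

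Receptors for GABA and glutamate were called higher in 10 of 23 cases and lower in 1, beside 4.42% and 2.94% of all genes. Their median difference was 0.077. Grm8, a presynaptic glutamate receptor, was higher by 0.73 ± 0.09 and Grin3a, a subunit of NMDA receptors, by 0.48 ± 0.08 (0.32 with the mean of its probe sets). Gabra5, the alpha 5 subunit of GABA-A receptors, had 10.76, 10.61, 10.64 and 10.65 in motor cortex, against 9.98, 9.95, 10.04 and 10.15 in sensory cortex (difference 0.64 ± 0.06). The delta subunit Gabrd ran the other way, with 11.35, 11.48, 11.36 and 11.41 in motor cortex against 11.77, 11.87, 11.82 and 11.81 in sensory cortex (difference -0.41 ± 0.05, and -0.26 with the mean of its probe sets). The count of higher members was 4 to 9 with 1 mouse left out, 5 without the block and 10 with the processing day as a covariate. It was 3 without both the block and the second processing day, where Grm8 stood at 0.59 and was not called. With the mean of a gene's probe sets 4 were higher and 2 lower, with a median difference of 0.044.

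Of 15 measured receptors for monoamines and acetylcholine, 3 were higher and none lower, with a median difference of -0.0095, and 1 or 2 were higher with 1 mouse left out. The noradrenaline receptor gene Adra1b was higher by 0.60 ± 0.08. The serotonin receptor gene Htr2c had 9.95, 9.82, 10.28 and 9.56 in motor cortex, against 9.05, 9.31, 9.16 and 9.57 in sensory cortex. In mouse 4 its areas were level, and the difference over all mice was 0.63 ± 0.14. Htr2c missed the threshold without mouse 1, 2 or 3, at 0.54, 0.67 and 0.47, and with an intensity trend and robust prior (adjusted p = 0.235 by limma). Htr1a (0.21 ± 0.06) missed it with any mouse left out, at 0.19 to 0.25.

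Potassium channel genes divided evenly, with 4 of 25 higher and 5 lower and a median difference of -0.029. With 1 mouse left out 3 were higher and 3 or 4 lower. Kcng1 and Kcnf1, silent subunits that modify other channels, were higher by 0.89 ± 0.08 and 0.45 ± 0.07 (the second probe set of Kcng1 gave 0.09), whereas the silent subunit Kcns1 was lower (-0.71 ± 0.07). Kcnip2, which binds Kv4 channels, was lower (-0.63 ± 0.06), with -0.90 and 0.15 in its other probe sets. Kcnk2, the leak channel TREK-1, was lower (-0.43 ± 0.05).

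**Figure D4:**
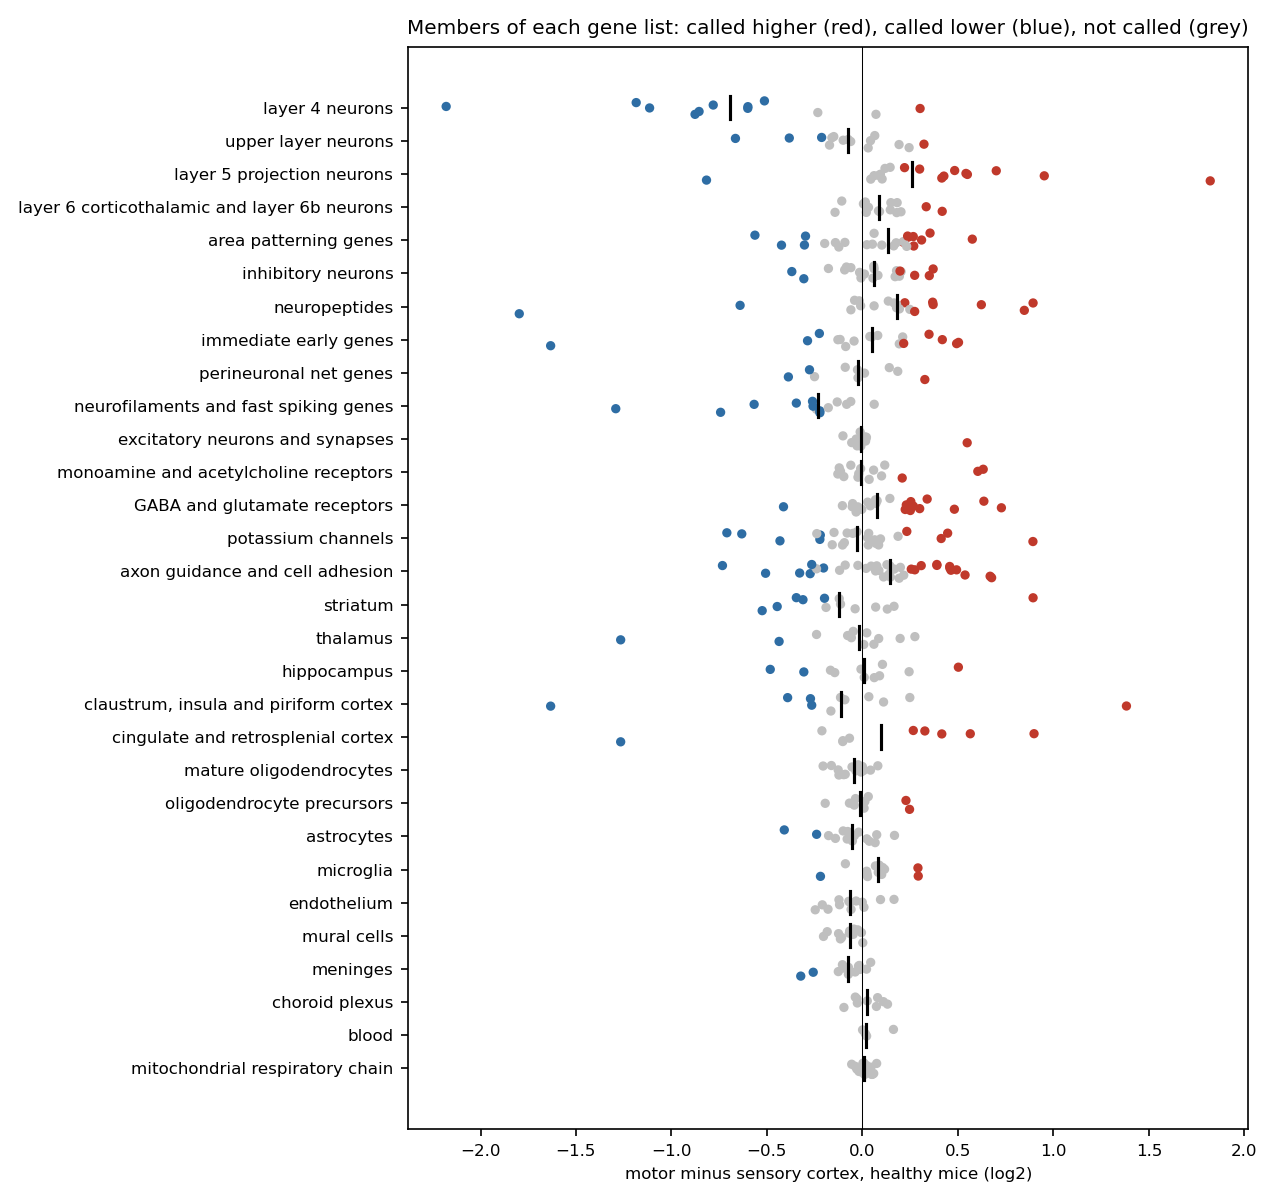
Motor minus sensory difference (log2, horizontal axis) of each measured member of the gene lists (vertical axis), with called higher, called lower and uncalled members in different colours. Layer 4 genes lie mostly left of 0 (median -0.69) and layer 5 genes mostly right of it (median 0.26), and the blood and choroid plexus lists hold no called member.

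Markers of neighbouring tissue were read beside these results, since the tissue was only enriched. Over all genes 4.42% were called higher and 2.94% lower. Of 13 striatal genes, 5 were lower and 1 higher in motor cortex (median -0.12), with 3 or 4 lower when 1 mouse was left out, and their summed level was 14.58 to 14.84 on motor arrays against 14.66 to 14.88 on sensory arrays (log2). Ppp1r1b, the phosphoprotein DARPP-32, was lower (-0.45 ± 0.06), and the defining receptor genes Drd1 and Drd2 were not called (-0.11 ± 0.10 and -0.12 ± 0.09). Gpr6 was lower (-0.53 ± 0.06), and mouse 2 had the highest value in both areas (7.65 in motor against 8.05 in sensory cortex). Scn4b, described with the fast-spiking genes, is also on this list and was among its lower members. The member called higher was Tac1, described with the neuropeptides. The part of striatal tissue in the differences was not tested.

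Of 12 thalamic genes, Slc17a6 and Rora were lower and none was higher (median -0.021), with a summed level of 13.21 to 13.34 on motor arrays and 13.63 to 13.65 on sensory arrays. Without mouse 4, 2 were higher and 3 lower, and the counts were the same with the processing day as a covariate. Among the members not called, Tcf7l2, Prkcd and Gbx2 differed by 0.01 ± 0.05, 0.06 ± 0.06 and -0.05 ± 0.06. Rora, a nuclear receptor, was lower (-0.44 ± 0.06) in its brightest probe set and in all 8 others. The part of thalamic tissue in the differences of Slc17a6 and Rora was not tested. Of 11 genes of claustrum, insula and piriform cortex, 4 were lower and 1 higher (median -0.11; 1 lower without mouse 2 and 2 without mouse 1 or 4), with a summed level of 14.11 to 14.40 on motor arrays and 14.32 to 14.44 on sensory arrays. The lower members were Nr4a2, Gnb4 (-0.39 ± 0.10), Ntng2 and Lxn (both -0.27 ± 0.06), and the higher member was Rspo2. Ntng2 missed the threshold without mouse 2 or 3 (-0.22 and -0.27) and Lxn without mouse 1, 2 or 4 (-0.22, -0.30 and -0.25). The part of that tissue in the difference of Nr4a2 was not tested.

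Of 10 genes of cingulate and retrosplenial cortex, 5 were higher and 1 lower (median 0.099), with a summed level of 14.75 to 14.85 on motor arrays and 14.74 to 14.93 on sensory arrays. Npr3, also on the layer 5 list, was among the higher members, and the lower member was Slc17a6, also on the thalamic list. Lypd1 had 10.80, 10.62, 10.75 and 10.60 in motor cortex, against 9.49, 9.90, 9.73 and 10.05 in sensory cortex (difference 0.90 ± 0.10), and Zfpm2, a cofactor of GATA factors, was higher by 0.56 ± 0.07. Of 11 hippocampal genes, 1 was higher (Spink8, 0.50 ± 0.06) and 2 lower (median 0.0092), with a summed level of 12.88 to 12.95 on motor arrays and 12.86 to 12.98 on sensory arrays. Neurod1 was lower (-0.48 ± 0.06). Prox1, also on the list of inhibitory neurons, was lower (-0.31 ± 0.08). It missed the threshold without mouse 2 or 3, at -0.32 and -0.20, and with the mean of its probe sets (-0.08). The part of these tissues was not tested.

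Glial and vascular lists were read beside the 7.35% of all genes called. None of 14 mature oligodendrocyte genes was called (median -0.044). Without mouse 2, whose motor array stood highest for Mbp, 2 were lower (median -0.15). Within cohort 2, which holds 2 healthy mice, 6 were lower (median -0.19). Mbp, a myelin protein, stood at 14.33 to 14.58 in motor cortex against 14.37 to 14.47 in sensory cortex (difference -0.02 ± 0.06). None was called among 13 endothelial, 12 mural, 9 choroid plexus, 4 blood and 16 respiratory chain genes, with medians from -0.068 to 0.025. Ttr, the main transcript of choroid plexus, stood at -0.04 ± 0.09.

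Of 16 astrocyte genes, 2 were lower and none higher. Gfap, the filament protein of reactive and white matter astrocytes, had 10.28, 10.35, 9.79 and 10.25 in motor cortex, against 10.59, 10.59, 10.62 and 10.50 in sensory cortex (difference -0.41 ± 0.09), and its other 2 probe sets gave -0.39 and -0.28. Gfap stood at -0.27 without mouse 3, and it was not called without the mouse as a block (-0.41) or without both the block and the second processing day (-0.43). In the remaining lists, 2 of 10 genes of oligodendrocyte precursors were called higher, 2 of 13 microglial genes higher and 1 lower, and 2 of 14 meningeal genes lower. Igfbp2, a meningeal gene, was lower (-0.32 ± 0.05) and the microglial receptor Gpr34 higher by 0.29 ± 0.05. The other called members of these lists, Slc7a10, Pdgfra, Gpr17, Aif1, Cx3cr1 and Dcn, had differences from -0.26 to 0.29, and each missed the threshold with at least 1 mouse left out.

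The same areas of the EAE mice, which share no array with the healthy comparison, were read in the same way. In EAE mice 728 genes differed between motor and sensory cortex (4.00%), with 389 higher (2.14%) and 339 lower (1.86%) in motor cortex. Of the 1338 genes called in healthy mice, 1282 (95.8%) had the same sign in EAE mice, against 69.6% of all genes. Both comparisons called 571 genes, which is 78.4% of the calls in EAE mice and 42.7% of those in healthy mice. All 21 genes with at least a 2-fold difference in healthy mice were called with the same sign in EAE mice. Across the 1338 genes the differences in EAE and healthy mice correlated at 0.941, and the median ratio of the EAE to the healthy difference was 0.816. Genes are not independent replicates, the probes are shared, and the genes were selected in healthy mice.

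Crym differed by 1.43 ± 0.17 in EAE mice and 1.82 ± 0.11 in healthy mice, Cyp39a1 by -1.97 ± 0.12 in EAE mice and -2.18 ± 0.13 in healthy mice, and Rorb by -1.21 ± 0.06 in EAE mice and -1.11 ± 0.06 in healthy mice. Each had the same direction in 6 of 6 EAE mice. Of the layer 4 genes, 10 of 12 were lower in EAE mice and 9 in healthy mice, and of the layer 5 genes 9 of 18 were higher in EAE mice and 10 in healthy mice. The count of genes in EAE mice also depended on single animals, at 379 without EAE mouse 2, 316 without EAE mouse 4 and 315 without EAE mouse 5.

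The difference of the area difference between EAE and healthy mice was tested itself. None of 18194 genes was called by limma (0.00%), and 422 (2.32%) had an unadjusted p under 0.05. The 5 genes with the smallest p were H2-Ab1, Spink8, Pappa2, Cxcl10 and Parp9. Pappa2 differed by 0.64 ± 0.12 in EAE mice and by 1.42 ± 0.06 in healthy mice (unadjusted p = 0.000432 and adjusted p = 1 by limma). Spink8 differed by 1.12 ± 0.11 in EAE mice and 0.50 ± 0.06 in healthy mice. H2-Ab1, a subunit of MHC class II, and the chemokine Cxcl10 differed by -0.40 ± 0.08 and -0.76 ± 0.16 in EAE mice, and by 0.16 ± 0.09 and 0.13 ± 0.07 in healthy mice, where neither was called. Parp9 differed by -0.27 ± 0.07 in EAE mice and 0.05 ± 0.05 in healthy mice.

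**Figure D5:**
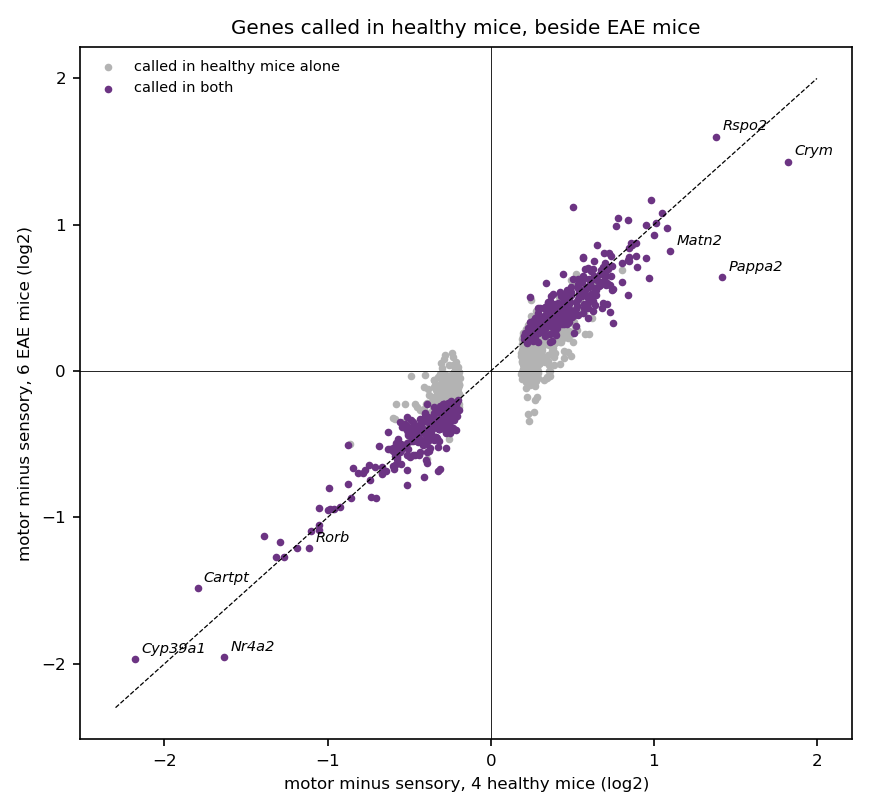
Motor minus sensory difference (log2) in 6 EAE mice (vertical axis) against that in 4 healthy mice (horizontal axis) for the 1338 genes called in healthy mice, with the 571 called in both in a second colour and a dashed line of equal differences. The points follow the line, 1282 have the same sign, and Pappa2 lies below the line at 0.64 in EAE mice and 1.42 in healthy mice.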

How the data were processed

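RNA of motor and sensory cortex was measured on 1-colour Affymetrix arrays, labelled from 1 µg of total RNA. The deposited values are log2 expression of 45101 probe sets, and the submitters' processing notes name RMA and Partek (their versions are not given in the sources used here). This method equalises arrays and compresses differences at low signal. No scans or detection calls were used, and precision is limited by how many arrays there are. Of the probe sets, 34958 had 1 gene symbol in the platform annotation, 932 had several and 9211 were not listed. Those 2 kinds were not named, and 34754 of the single symbols matched RefSeq (GRCm38.p6) through Entrez identifiers, with 0 changed. The brightest probe set over all arrays stood for each of 18194 genes, and 19 of 1338 called genes had another probe set of opposite direction at an unadjusted p under 0.05.

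Groups came from the labels. The 8 healthy arrays were fitted with limma 3.58.1 under R 4.3.3, by lmFit and then eBayes, two-sided and with the mouse as a block, since the labels' animal numbers show that both arrays of a number come from 1 animal. Deviations of the 2 arrays of a mouse from their group means correlated at 0.163 to 0.566. For mouse 3 another mouse's array correlated better (0.181 against 0.163), and for mouse 4 nearly as well (0.334 against 0.346), so the pairing rests on the labels. The threshold for a call was an adjusted p under 0.05 (Benjamini-Hochberg over all genes). Each adjusted p is from limma, and errors of differences are moderated SEs. An exact test over 4 pairs could not go below 0.125 (two-sided). EAE mice were fitted likewise, and the difference between conditions on each mouse's motor minus sensory value with cohort as a covariate. The fits were also run on data simulated with independent normal noise for each gene. That setting cannot show how they behave with correlated genes or a day effect. Summed levels of a list are log2 of the sum of its linear values.

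Alternatives were no block, all 20 arrays, each mouse left out, processing day, cohort, quantile normalization, a dim limit of 6, other uses of probe sets and another prior. List counts under alternatives and the overlap without EAE mouse 3 were added after seeing the data. Named genes were the 12 largest called differences in each direction, up to 4 called members of smallest p of each of 30 lists (458 of 494 entries measured), the 5 smallest p for the difference between conditions, and a fixed set of 26 genes, of which 24 were measured. Some genes are on several lists and count in each. Further list members were named after their values were seen. The comparison, members and lists were chosen with earlier results of these data known.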

Additional observations from a re-analysis of the deposited data

Results flagged for a closer look

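In 216 sets of 4 healthy arrays (an area and a named gene), 13 (6.02%) had 1 array far from the other 3 by Dixon's test, where chance gives about 1 in 20. In motor cortex, mouse 2 stood apart for Cartpt (8.60, against 8.45 to 8.47 in the others), Tac2 (10.18), Gpr6 (7.65), Mbp (14.58) and Drd2 (7.53), mouse 3 for Pvalb (12.90), and mouse 4 for Sla (8.74) and Unc5d (10.97). In sensory cortex, mouse 1 stood apart for Kcns1 (9.53), mouse 2 for Nr4a3 (10.43) and Htr1a (9.42), mouse 3 for Sla (8.96) and mouse 4 for Trhr (6.32). All values are log2 expression. Of the 13, 3 were on arrays of the second processing day.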

How the results depend on the processing

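The count of 1338 genes (804 higher and 534 lower in motor cortex) depended on the setting. Differences are unchanged by dropping the block, using all 20 arrays, adding the day, a dim limit, single probe sets or another prior. Direction was therefore fixed in those settings. The other settings use the same mice. All 1338 kept their direction in them, except that 1333 did with the mean of a gene's probe sets. Without the pairing by mouse as a block the count was 674 (407 and 267), all of them among the 1338, and with all 20 arrays 716 (416 and 300). With 1 mouse left out it ran from 606 to 1246 (355 to 813 higher and 251 to 433 lower). It was 566 (324 and 242) without both the block and the second processing day, against 674 without the block alone. It was 745 (487 and 258) within cohort 1 and 1352 within cohort 2, each resting on 2 mice against 4 in the main fit. With an intensity trend and robust prior it was 2014 (1192 and 822). Tested singly, 1997 of 45101 probe sets were called, of which 1069 were lower in motor cortex and 46.5% higher, against 60.1% of the called genes. Processing day as a covariate, quantile normalization, the dim limit and the probe set mean gave 1558, 1421, 1381 and 1182. In EAE mice the count of 728 ran from 315 to 882 with 1 mouse left out and was 570 without the block. Without EAE mouse 3, a setting added after seeing the data, 628 genes were called in both conditions, against 571 with all EAE mice. The difference between conditions kept a count of 0 in each alternative run.

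Of 93 named genes that were called, 73 passed whichever mouse was left out and 56 in every alternative. None changed sign in the settings where differences could change. Without the block, 22 lost the call, namely those of the precursor, microglial and meningeal lists except Igfbp2, and Gfap, Slc7a10, Pou3f2, Nptx2, Sez6, Sla, Nr2f2, Cort, Npas4, Has3, Htr1a, Gpr6, Spink8, Prox1, Ntng2 and Lxn. Without both the block and the second processing day 26 lost it, of which Tac2, Pvalb, Bdnf, Grm8, Npr3 and Scnn1a kept it both without the block alone and whichever mouse was left out. Of the 15 that were not called, 10 changed sign somewhere. Within cohort 1 H2-Ab1 stood at -0.0354, Parp9 at -0.0262, Ccn2 at 0.12, Slc17a7 at 0.0252, Mbp at 0.0047 and Ttr at 0.19. Within cohort 2 Foxp2 stood at -0.24, Gad1 at 0.0066 and Drd2 at 0.11. Without the second processing day and the block Ccn2 stood at 0.20, Slc17a7 at 0.0471, Mbp at 7e-04 and Drd2 at 0.0337. With 1 mouse left out, values ran from -0.1229 to 0.1948 for Foxp2, -0.3644 to 0.1823 for Ccn2, -0.1193 to 0.0801 for Slc17a7, -0.0669 to 0.0035 for Mbp, -0.2221 to 0.0078 for Drd2 and -0.1162 to 0.0402 for Ttr. Tle4 stood at -0.0072 with the mean of its probe sets. That mean moved 23 called genes by over 1.5 times, all to smaller differences, such as Car3 to -0.41, Rspo2 to 0.91 and Trhr to 0.48, and Npr3, Sla, Ndnf, Vcan, Htr2c, Prox1, Ntng2, Pdgfra and Dcn lost the call there. Nr4a2 and Htr2c lost it with the intensity trend and robust prior. Within cohort 2, Chrna5 (0.64) and Scnn1a (-0.55) were moved as far and stayed called, and Sez6, Sla, Ndnf and Gpr17 did not. The causes were not tested.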

Other observations

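Members of several gene families differed in opposite directions, in families chosen after their values were seen. Of 42 measured collagen chain genes, 3 were higher and 5 lower in motor cortex, and besides Col24a1 and Col11a1 the fibrillar chain Col5a1 was lower (-0.60 ± 0.06), whereas Col17a1 was higher by 0.60 ± 0.09. Of 8 troponin genes, Tnnt2 (0.86 ± 0.10) and Tnnc1 (0.84 ± 0.09) were higher and Tnnt1 (-0.45 ± 0.08) was lower. Of 4 aldehyde dehydrogenase genes of the Aldh1a group, Aldh1a7 was higher and Aldh1a1, which makes retinoic acid, lower (-0.66 ± 0.06). Among 7 genes of cerebellins and C1q-like secreted proteins, which organise synapses, C1ql3 was higher by 0.72 ± 0.06 and Cbln4 lower. Of 12 protocadherin genes outside the clusters, 6 were higher, such as Pcdh17 (0.71 ± 0.06), and 2 lower. Of 15 carbonic anhydrase genes, 3 were lower, including Car4 (-0.51 ± 0.07), and Car12 was higher by 0.38 ± 0.09. Of 15 nicotinic receptor genes, only Chrna5 was called. The background is 7.35% of all genes called. In EAE mice these named genes had the same signs, for example Tnnt2 at 0.87, Aldh1a1 at -0.70, C1ql3 at 0.69 and Car4 at -0.78.

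Among the 9211 probe sets without a gene name, 328 (3.56%) were called, 130 higher and 198 lower in motor cortex, against 4.70% of probe sets with 1 symbol. The largest lower difference among them was -1.25 ± 0.06.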
